A study of Mus musculus with 19 samples.

Results

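The Cyp3a genes are the mouse members of the CYP3A family of cytochromes P450, and they were followed here in liver with and without the RNA-binding protein RALY. Members were taken by symbol from the deposited RNA-seq table. These are the 8 genes Cyp3a11, Cyp3a13, Cyp3a16, Cyp3a25, Cyp3a41a, Cyp3a41b, Cyp3a44 and Cyp3a59, out of 24054 genes in all. A ninth row, Cyp3a57, was listed at 0 in every liver and is not among them. Liver RNA-seq of 3 control and 3 L-RalyKO mice was analysed here. All were Raly flox/flox mice of the C57BL/6 strain on chow diet, in which LoxP sites flank a pair of Raly exons. L-RalyKO mice had received AAV8.TBG.Cre and controls AAV8.TBG.GFP, 4 weeks before the liver was taken. The TBG promoter is active in hepatocytes, so other liver cells keep the gene, and the whole tissue was sequenced. The labels call the controls wild type, although they carry the floxed alleles and a virus too. The methods describe male mice unless stated otherwise. Ages are not given in the sources used here for these livers. The ATAC-seq of liver and the RALY ChIP-seq of Hepa1-6 cells were not analysed here.

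CYP3A enzymes sit in the membrane of the endoplasmic reticulum and oxidize a wide range of drugs, steroids and bile acids. Each turn of the enzyme needs oxygen, a haem group and electrons from P450 oxidoreductase. In liver their transcription is driven by nuclear receptors, above all PXR (Nr1i2) and CAR (Nr1i3) with their partner RXR, together with HNF4A, C/EBP and FOXA factors. Several mouse members also differ between the sexes through the pulse pattern of growth hormone. Cyp3a11 is the main PXR-inducible form of adult liver. Cyp3a13 is expressed in liver and intestine, and Cyp3a25 mostly in liver. Cyp3a41a, Cyp3a41b and Cyp3a44 are known as forms of female liver, and Cyp3a16 as a form of the fetal and newborn liver.

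All 8 genes lie on chromosome 5 (GENCODE vM1 on NCBIM37, which is mm9), and the main transcript of each has 13 exons. Cyp3a13 (ENSMUSG00000029727.7) stands alone at chr5:138334160-138362847 on the − strand, and 7743300 bp separate it from the first gene of the cluster, Cyp3a57. The cluster holds, in this order, Cyp3a16 at chr5:146197178-146230592, Cyp3a41b at chr5:146319544-146345599, Cyp3a41a at chr5:146505635-146531712, Cyp3a44 at chr5:146585559-146617450, Cyp3a11 at chr5:146666002-146691540 and Cyp3a25 at chr5:146788770-146821194, all on the − strand. Cyp3a59 closes it at chr5:146890834-146924861 on the + strand.

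Reads of near-identical copies cannot always be told apart, and how the authors counted such reads is not given in the sources used here. The libraries were read in pairs of 150 bases. Of the stretches of 150 bases in the annotated transcripts of Cyp3a41a, 82.8% also occur in Cyp3a41b, and the coding sequences differ at 2 of 1515 bases. Cyp3a25 and Cyp3a59 differ at 38 of 1512 coding bases, and 0.607% of the 150-base stretches of Cyp3a25 occur in Cyp3a59. The other members share no stretch of this length with the protein-coding transcripts of any other gene. Pseudogenes, non-coding transcripts and introns were not searched. Aligned pieces of 50 bases are more alike, with 93.7% of those of Cyp3a41a in Cyp3a41b, 23.8% of those of Cyp3a25 in Cyp3a59 and between 4.49% and 6.32% of those of Cyp3a11 in Cyp3a16, Cyp3a41a, Cyp3a41b or Cyp3a44. Cyp3a13 shares no piece of 50 bases with the protein-coding transcripts of another gene, and no member shares one with those outside the family. The following 60 coding bases from each of these 2 pairs show how the copies differ, with the bases that differ within the pair in capitals. They are bases 61 to 120 of the coding sequence for the first pair and 290 to 349 for the second, read from the GENCODE vM1 transcripts.
Cyp3a41a: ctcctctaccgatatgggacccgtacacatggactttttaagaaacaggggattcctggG
Cyp3a41b: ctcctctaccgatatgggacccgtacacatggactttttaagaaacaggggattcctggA
Cyp3a25: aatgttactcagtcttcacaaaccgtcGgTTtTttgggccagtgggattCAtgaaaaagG
Cyp3a59: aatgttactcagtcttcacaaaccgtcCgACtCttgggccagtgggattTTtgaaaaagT

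Upstream of the start sites, the hexamer AGGTCA, a core element bound by nuclear receptors such as PXR and HNF4A, was searched on both strands in the RefSeq promoter windows of GRCm38.p6 (250 bases before to 50 after the start), which were found for all 8 members. It occurs in 16.3% of the 32851 windows of all genes. Among the members it is present once in Cyp3a11 and Cyp3a44 and on each strand in Cyp3a25 and Cyp3a59. It was not found in the windows of Cyp3a13, Cyp3a16, Cyp3a41a and Cyp3a41b. For each member only the first listed window was searched, while the shares cover all windows. The STAT element TTCNNNGAA, present in 8.3% of all windows, was in none of the 8. The stretch from 190 to 131 bases before the start is shown for the 3 cluster genes whose mean value reached 1 in these livers and for 2 of those without, with the hexamer in capitals. In this stretch Cyp3a41b has the same sequence as Cyp3a41a. The positions are chr5:145879985-145880044 (− strand) for Cyp3a11, chr5:146009749-146009808 (− strand) for Cyp3a25, chr5:146079068-146079127 (+ strand) for Cyp3a59, chr5:145806005-145806064 (− strand) for Cyp3a44 and chr5:145720267-145720326 (− strand) for Cyp3a41a.
Cyp3a11: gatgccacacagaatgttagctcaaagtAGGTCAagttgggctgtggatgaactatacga
Cyp3a25: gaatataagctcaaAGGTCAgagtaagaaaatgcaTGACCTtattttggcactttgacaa
Cyp3a59: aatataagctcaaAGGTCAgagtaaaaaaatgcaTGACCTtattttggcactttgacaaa
Cyp3a44: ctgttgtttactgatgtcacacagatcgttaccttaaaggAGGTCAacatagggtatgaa
Cyp3a41a: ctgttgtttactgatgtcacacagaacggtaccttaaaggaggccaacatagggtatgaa
The letters describe the windows, and binding to them was not measured in the data used here.

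Values below are on the deposited scale, CPM by the authors' scaled library size, not divided by length unless stated. Between 28302983 and 38052705 reads per liver were counted on genes, so that 3 reads are worth a value of 0.0789 to 0.105. The targeted gene, Raly, stood at 50.1, 48.6 and 46.8 in controls and at 6.34, 6.61 and 7.39 in L-RalyKO livers (log2 fold change −2.67, adjusted p = 6.92e-07, limma). In all 6 livers the X-inactivation RNA Xist was at most 0.378 and the Y-linked gene Ddx3y at least 75.2, a check of sex chosen after these values were seen. Markers of the labelled tissue were abundant, with Alb at 68256 ± 4072 in controls, and the sum of the 8 hepatocyte markers, most of it Alb, was 93758 to 102746 in controls and 103827 to 104726 in L-RalyKO livers, without overlap. The summed levels of Kupffer and myeloid, endothelial, stellate and fibroblast, cholangiocyte and lymphocyte markers overlapped between the groups, and no tested gene of these lists passed the test. Of 5 adipocyte markers, Adipoq, Lep, Retn and Plin1 had mean values of at most 0.0696 in both groups. In controls Adipoq had 4, 0 and 1 reads, Lep 7, 0 and 0, and Retn 5, 0 and 0. Plin1 had 2, 2 and 0 there. In L-RalyKO livers only Adipoq had reads, 2 in replicate 1. The fifth, Cfd, had values of 12.6, 2.74 and 3.46 in controls and of 0.204, 1.10 and 0.132 in L-RalyKO livers. It reached the filter on low genes through the controls alone, and no test is given for it. The summed adipocyte markers, nearly all Cfd, were 2.81 to 13.1 in controls and 0.132 to 1.10 in L-RalyKO livers. The part of the hepatocyte and adipocyte markers in the values below was not tested.

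The family was dominated by Cyp3a11, and the members with a read spread over 5 orders of magnitude. Divided by the length of the exons in kb, mean levels over the 6 livers were 1358 for Cyp3a11, 279.9 for Cyp3a25, 60.5 for Cyp3a13, 13.3 for Cyp3a59, 0.0861 for Cyp3a41a and 0.0101 for Cyp3a44, and Cyp3a16 and Cyp3a41b were at 0. The lowest liver of each of the first 4 genes was above the highest liver of the next gene in this order. Between Cyp3a41a and Cyp3a44 the levels per kb were also apart, at 0.0385 to 0.142 against 0 to 0.0296, on few reads. Cyp3a44, Cyp3a16 and Cyp3a41b could not be ranked among themselves at this depth. Nor could Cyp3a41a be ranked against Cyp3a41b, since the reads listed under Cyp3a41a cannot be assigned to either copy. By value, Cyp3a11 stood at rank 39 of 24054 genes, Cyp3a25 at 218, Cyp3a13 at 762 and Cyp3a59 at 4460.

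**Figure D1:**
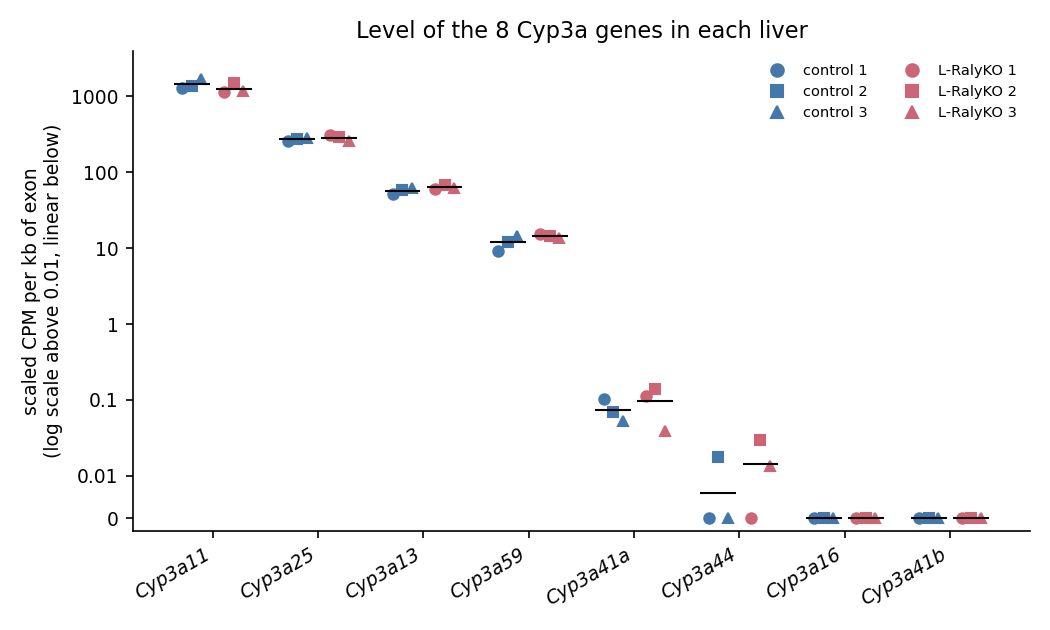
Levels of the 8 Cyp3a genes in each of the 6 livers, in scaled CPM per kb of exon on an axis that is logarithmic above 0.01 and linear below. Symbols are single livers, blue for control and red for L-RalyKO, and black lines are group means; the 2 groups overlap for each of the genes that has a read, from Cyp3a11 at 1134 to 1701 per kb down to Cyp3a44 at 0 to 0.0296.

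The comparison of L-RalyKO with control livers asks whether loss of RALY from hepatocytes changes the level of these P450 transcripts. No Cyp3a member was called higher or lower in L-RalyKO liver, and 4 of the 8 had too few reads to be tested. The filter, a mean value of at least 1 over the 6 livers, was passed by 4 members (Cyp3a11, Cyp3a25, Cyp3a13 and Cyp3a59), and limma called none of them at an adjusted p under 0.05, where 6.55% of the 11580 genes tested were called. At an unadjusted p under 0.05 there were also 0 of 4, beside 22.7% of all genes tested. The count of called members was 0 as well with edgeR, DESeq2 and limma voom on the recovered reads, with 1 member (Cyp3a59) at an unadjusted p under 0.05 in DESeq2. The groups overlapped for each of the 4 members, while 28.1% of all genes tested had groups that did not overlap. In bulk tissue, fewer cells of a type and less RNA per cell cannot be told apart.

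Cyp3a11, the main xenobiotic-inducible form, had values of 3003, 3176 and 3986 in controls and of 2658, 3502 and 2770 in L-RalyKO livers. The highest was control replicate 3, and L-RalyKO replicate 2 lay above the other two controls. The means were 3388 ± 525 and 2977 ± 459 (SD, n = 3 livers each, two-sided exact permutation test, p = 0.4, where 3 against 3 cannot give a p under 0.1). This is a log2 fold change of −0.19 (standard error 0.134, 95% interval −0.49 to 0.12, adjusted p = 0.458, limma), a ratio of 0.879 with an interval from 0.711 to 1.09. Ratios under 0.711 or over 1.09 thus lay outside that interval. With at least 90565 reads of Cyp3a11 per liver, counting error was small beside the spread between mice, which came to 15.5% of the mean in controls and 15.4% in L-RalyKO.

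Cyp3a25, the next in level, had values of 541.5, 577 and 585 in controls and of 637, 615 and 543 in L-RalyKO livers. L-RalyKO replicate 3 lay just above the lowest control, and the other two lay above all controls. The means were 568 ± 23.3 and 598 ± 49.2 (SD, n = 3 each, two-sided exact permutation test, p = 0.4). On the log2 scale the difference was 0.07 (standard error 0.069, 95% interval −0.08 to 0.23, adjusted p = 0.586, limma). The ratio was 1.05 with an interval from 0.943 to 1.17, the narrowest of the 4.

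Cyp3a13, the copy outside the cluster, had values of 154, 170 and 185 in controls and of 178, 200.1 and 185 in L-RalyKO livers. The groups met at control replicate 3, which lay above L-RalyKO replicate 1 and just under replicate 3. The means were 169.7 ± 15.7 and 188 ± 11.4 (SD, n = 3 each, two-sided exact permutation test, p = 0.2). limma gave a log2 fold change of 0.15 (standard error 0.0746, 95% interval −0.02 to 0.32, adjusted p = 0.285, limma), a ratio of 1.11 with an interval from 0.984 to 1.25. It has no stretch of 50 bases in common with the protein-coding transcripts of another gene.

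Cyp3a59, the near copy of Cyp3a25, had values of 18.4, 24.0 and 29.2 in controls and of 30.6, 29.2 and 27.7 in L-RalyKO livers. The 3 L-RalyKO livers lay close together, and the controls ranged from the lowest value, in replicate 1, to one inside the L-RalyKO range, in replicate 3. The means were 23.9 ± 5.42 and 29.2 ± 1.47 (SD, n = 3 each, two-sided exact permutation test, p = 0.2). The fitted log2 fold change came to 0.30 (standard error 0.139, 95% interval −0.01 to 0.62, adjusted p = 0.239, limma). Which control livers were included decided the call. Without control replicate 3 the log2 fold change was 0.45 with an adjusted p of 0.0469 (limma), and without control replicate 1 it was 0.13 with an adjusted p of 0.505, which are the ends of the range over its 16 alternatives. Summed with Cyp3a25, the values were 560, 601 and 615 in controls and 667, 645 and 570 in L-RalyKO livers, and the groups overlapped. Most of this sum is Cyp3a25, and it holds shared reads only if they were counted on either gene.

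**Figure D2:**
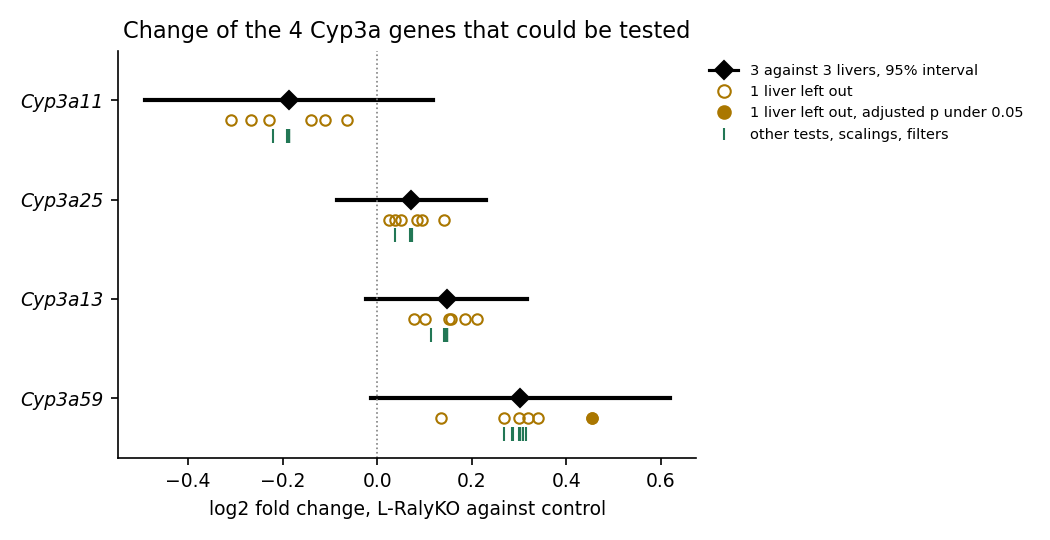
Log2 fold change (L-RalyKO against control) of the 4 Cyp3a genes that passed the filter, with the 95% interval from limma on 3 against 3 livers in black. Open circles leave out 1 liver. The filled circle marks the only such fit with an adjusted p under 0.05 (Cyp3a59 without control replicate 3, 0.45). Green ticks are the other tests, scalings and filters. Each gene stays on its own side of 0 throughout, though some ticks share the main fold change by design.

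The members known from female and newborn liver were at or near the limit of detection in both groups. Cyp3a41a had 7, 4 and 4 reads in controls and 8, 10 and 3 in L-RalyKO livers. In all these are 15 and 21 reads, or 0.153 CPM of the unscaled library (95% exact Poisson interval 0.0857 to 0.253) and 0.194 (0.12 to 0.297), which overlap. Cyp3a44 had 1 read in the control group and 3 in the L-RalyKO group. Cyp3a16 had 0 reads in each of the 6 livers, which allows up to 0.0306 CPM in controls and 0.0278 CPM in L-RalyKO, by the limit of 3 reads over a group. The exact Poisson interval used for Cyp3a41a is wider and reaches 0.0377 CPM in controls and 0.0341 CPM in L-RalyKO for 0 reads. Cyp3a41b also had 0 reads in each liver, but no limit is given for it, since its reads may have been counted on Cyp3a41a or left out. Such intervals cover counting error only. The few reads on Cyp3a41a cannot be assigned to either copy, since 82.8% of its 150-base stretches occur in both. A difference in Cyp3a16, Cyp3a41a, Cyp3a41b or Cyp3a44 between the groups was not detectable at this depth. No fold change is given for them.

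The summed values of the 8 members were 3717, 3947 and 4786 in controls and 3503, 4347 and 3526 in L-RalyKO livers (4150 ± 563 and 3792 ± 481, SD, n = 3 each). The groups overlapped, and Cyp3a transcripts took between 0.34% and 0.477% of all counted reads of a liver. The make-up of this sum is described per kb. Cyp3a11 gave 80.7% ± 1.63 of the summed per-kb values in controls and 77.5% ± 2.5 in L-RalyKO, with overlap. Cyp3a25 gave 15.4% ± 1.5 and 17.7% ± 2.25, also with overlap. Cyp3a13 gave 3.24%, 3.39% and 3.04% in controls and 3.97%, 3.62% and 4.13% in L-RalyKO livers, so that each L-RalyKO liver was above each control. Cyp3a59 gave 0.573%, 0.705% and 0.709% in controls and 1.01%, 0.781% and 0.911% in L-RalyKO livers, again without overlap.

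**Figure D3:**
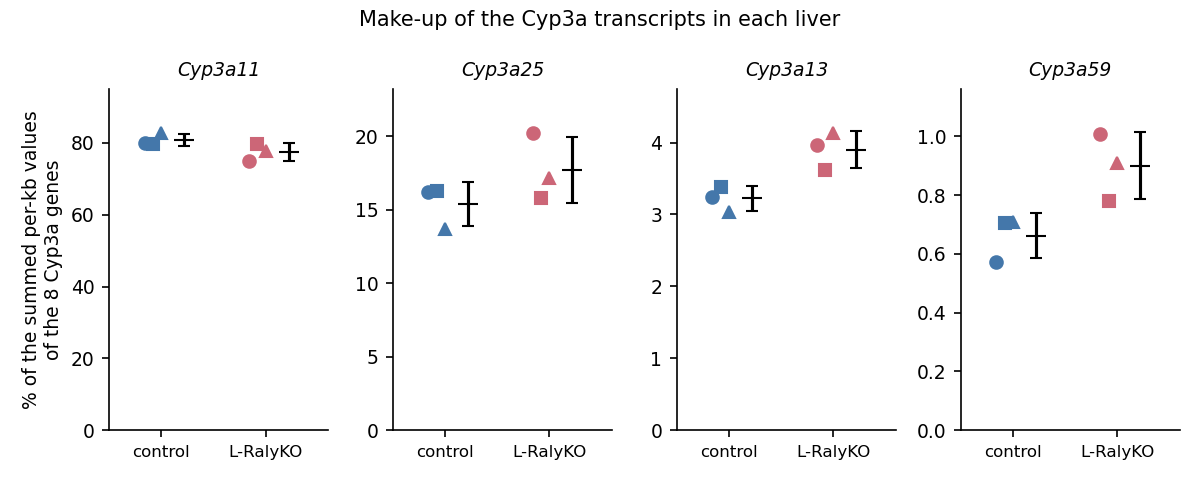
Share of each of the 4 expressed members in the summed per-kb values of the 8 Cyp3a genes, in percent, for each liver (blue control, red L-RalyKO; circle, square and triangle are replicates 1, 2 and 3), with the group mean and SD in black. Each vertical axis starts at 0; the groups overlap for Cyp3a11 and Cyp3a25 and do not overlap for Cyp3a13 (3.04% to 3.39% against 3.62% to 4.13%) and Cyp3a59.

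Ratios within a liver do not depend on the scaling between libraries. Per kb, Cyp3a11 exceeded Cyp3a13 by 24.6, 23.5 and 27.2 times in controls and by 18.9, 22.1 and 18.9 times in L-RalyKO livers. Its ratio to Cyp3a59 was 139.5, 112.9 and 116 in controls and 74.1, 102 and 85.4 in L-RalyKO livers. Neither ratio overlapped between the groups. The other 4 ratios among these members did overlap, among them Cyp3a11 to Cyp3a25 (4.93, 4.89 and 6.05 against 3.71, 5.06 and 4.54). In all, 2 of 4 shares and 2 of 6 ratios did not overlap, beside 28.1% of the genes tested. They depend on each other, were chosen after their values were seen and carry no test, and no change in the make-up of the family is read from them.

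The pattern of Cyp3a11 over the 6 livers, with its peaks in control replicate 3 and L-RalyKO replicate 2, was compared with that of every tested gene outside the family as the root mean square difference of centred log2(value + 1). Nearest to it were Ppan (0.047), a nucleolar factor of ribosome maturation, and Hal (0.0513), the histidine ammonia-lyase of periportal hepatocytes, against a root mean square of 0.199 for Cyp3a11 itself. Hal had values of 294, 302 and 353 in controls and 252, 327 and 273.5 in L-RalyKO livers. The likeness is a description over 6 livers that share their libraries and scaling, and carries no test.

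Among the regulators of Cyp3a transcription, 3 of 19 tested genes rose in L-RalyKO and none fell (limma, adjusted p under 0.05), and the median log2 fold change was 0.08, beside 0.00 over all genes tested. Of all 11580 genes tested 6.55% were called, 389 higher and 369 lower, and the counts of this and the following lists stand beside that share. The lists were chosen with earlier results of these data known, so no enrichment is read from their counts. Nr1i2, which encodes PXR, had values of 97.2, 89.6 and 94.9 in controls and of 116, 119 and 119 in L-RalyKO livers (log2 fold change 0.33, adjusted p = 0.00725, limma). Hnf4a, the nuclear receptor that sets much of hepatocyte gene expression, had values of 520.3, 542 and 680.5 in controls and of 899.6, 809 and 829 in L-RalyKO livers (0.55, adjusted p = 0.0155, limma). Foxa2, a pioneer factor of liver genes, went from 13.3, 13.9 and 16.7 to 33.0, 28.9 and 21.3 (0.86, adjusted p = 0.0126, limma). In each of the 3 genes every L-RalyKO liver lay above every control. Without control replicate 1 the list had 1 call and without control replicate 3 it had 5. The call of Hnf4a was lost without control replicate 1 (adjusted p = 0.0509, limma), control replicate 2 (0.051) or L-RalyKO replicate 1 (0.0617), over a range from 1.37e-06 to 0.0617, and that of Foxa2 without control replicate 1 (0.0501), over a range from 3.8e-08. Nr1i3, which encodes CAR, was at 164.5 ± 10.7 in controls and 163 ± 1.43 in L-RalyKO (log2 fold change −0.01, adjusted p = 0.916, limma). Vdr, the vitamin D receptor, was below the filter.

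Of the electron donors and haem synthesis genes, 1 of 14 tested rose and none fell, near the share of 6.55% over all genes, with a median log2 fold change of −0.01. The gene that rose was Por, the P450 oxidoreductase that hands electrons to every microsomal P450. Its values were 546, 631 and 672 in controls and 948, 966 and 874 in L-RalyKO livers (log2 fold change 0.60, adjusted p = 0.00531, limma), with no overlap. The call of Por held in each of its 16 alternatives, and the list had 2 calls without control replicate 3. Alas1, the first step of haem synthesis, was at 780 ± 309 and 1015 ± 115 and did not pass (adjusted p = 0.309, limma). Cyb5a was not found under that symbol.

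The other target genes of PXR and CAR did not move one way. Of 17 tested, 3 rose and 1 fell, with a median log2 fold change of −0.11. Sult1d1, a sulfotransferase, rose from 141, 134 and 155 to 212, 222 and 204 (log2 fold change 0.57, adjusted p = 0.00241, limma). Papss2, which makes the sulfate donor, rose from 159, 184 and 170 to 208, 214.5 and 212 (0.31, adjusted p = 0.0194, limma). Cyp2c55, an inducible P450 of low level here, rose from 9.63, 7.54 and 8.84 to 12.7, 11.9 and 11.2 (0.42, adjusted p = 0.0365, limma). Cyp2c37, another P450, fell from 351, 303 and 288.5 to 258, 229 and 253 (−0.34, adjusted p = 0.041, limma). The inducible Cyp2b10, a marker of CAR activity, was at 23.8 ± 8.79 and 17.3 ± 7.59 and did not pass (adjusted p = 0.438, limma). Only the call of Sult1d1 held in each of its alternatives. The list had 2 calls without control replicate 1, control replicate 2 or L-RalyKO replicate 3, and 1 call without L-RalyKO replicate 1 or replicate 2. The call of Papss2 was lost without control replicate 1 or any of the L-RalyKO replicates (adjusted p up to 0.0647), that of Cyp2c55 without any liver but control replicate 1 (up to 0.123), and that of Cyp2c37 without any liver but control replicate 3 (up to 0.118). The 3 were also lost with limma without its trend, and Cyp2c55 and Cyp2c37 when all genes with a read were tested. Over the alternatives other than a left-out liver the list had 1 to 5 calls.

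Some sex-dependent genes outside the family had larger log2 fold changes than the Cyp3a members. Of 16 female-biased genes 8 passed the filter, but Cyp2b13 and Cyp2a4 did so through the controls alone and are given as values. Of the 6 with a mean of at least 1 in both groups, 2 fell and none rose, with a median log2 fold change of −0.24. Cyp2b9, a P450 of female liver, fell from 65.2, 48.9 and 36.3 to 0.873, 2.15 and 3.18 (−4.09, adjusted p = 0.000406, limma). Cyp2a22 fell from 13.4, 16.9 and 13.3 to 7.18, 7.31 and 7.08 (−0.91, adjusted p = 0.00174, limma). Both calls held in each of their 16 alternatives. Cyp2b13 had values of 2.12, 1.26 and 2.97 in controls and of 0, 0.029 and 0.0526 in L-RalyKO livers, and Cyp2a4 had means of 1.36 ± 0.282 and 0.781 ± 0.354. The female-biased members Cyp3a41a and Cyp3a44 had 15 reads and 1 read in the 3 control livers together.

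Of 16 male-biased genes, all tested, 5 rose and none fell (6.55% of all genes were called in either direction), with a median log2 fold change of 0.37. The 4 with the lowest p were Gstp1, a glutathione transferase (869 ± 61 to 1423 ± 114, log2 fold change 0.71, adjusted p = 0.00196, limma), the complement genes C6 (0.49, adjusted p = 0.00587, limma) and C8b (0.54, adjusted p = 0.0115, limma), and Cyp7b1, the oxysterol 7-alpha-hydroxylase (160 ± 21.2 to 214.5 ± 17.1, 0.43, adjusted p = 0.0377, limma). The fifth was Serpina1e, a serpin gene (0.95, adjusted p = 0.0464, limma), whose call was lost on leaving out any liver but control replicate 2 and in 5 of the 10 other alternatives, among them edgeR (adjusted p = 0.168, the highest, over a range from 0.0273) and DESeq2 (0.0513). The list had 3 calls without control replicate 1, L-RalyKO replicate 1 or L-RalyKO replicate 3, and 6 without control replicate 2. Over the alternatives other than a left-out liver it had 3 to 5 calls, with 3 in edgeR. The call of Cyp7b1 was lost without control replicate 1 or 3 or L-RalyKO replicate 1 or 3 (adjusted p up to 0.12) and in 4 of the other alternatives, edgeR among them (0.0534), and those of Gstp1, C6 and C8b held throughout. Cyp2b, Cyp2a, Gstp and Serpina1 genes have near copies too, whose shared reads were not examined.

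Growth hormone signalling, which sets these sex differences, had 1 call in each direction among 10 tested genes (median log2 fold change 0.21). Cish, a feedback inhibitor induced by STAT5, rose from 4.86, 3.93 and 11.7 to 34.4, 41.8 and 21.7 (2.18, adjusted p = 0.00981, limma, and 0.0936 with edgeR, over a range from 0.00106 to 0.0936). Stat5b, the transcription factor of the pathway, fell from 57.5, 63.3 and 69.3 to 48.4, 53.1 and 46.4 (−0.35, adjusted p = 0.0346, limma). The list had 6 calls without control replicate 3 and 1 call without control replicate 2, L-RalyKO replicate 1 or L-RalyKO replicate 3. The call of Stat5b was lost without control replicate 2 or 3 or L-RalyKO replicate 1 or 3 (adjusted p up to 0.11), with limma without its trend and when all genes with a read were tested. In the other alternatives the list had 1 to 4 calls. Bcl6, a repressor that opposes STAT5, was at 40.5 ± 23.6 and 10.6 ± 1.85 and did not pass (adjusted p = 0.0654, limma). Its values were 59.3, 48.2 and 13.9 in controls and 8.99, 12.6 and 10.2 in L-RalyKO livers. Control replicate 3 was the control nearest to the L-RalyKO livers in Bcl6 and Cish, and the farthest from them in Stat5b.

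**Figure D4:**
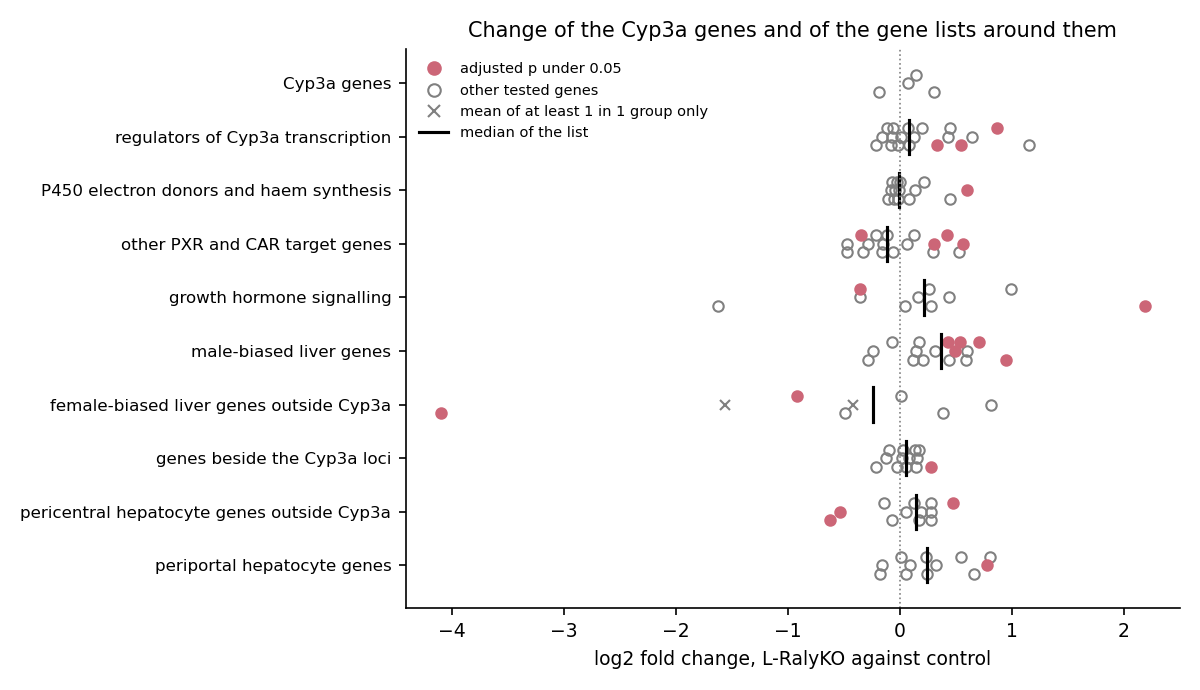
Log2 fold change (L-RalyKO against control) of each tested gene in the Cyp3a family and in 9 gene lists around it; filled red circles passed the test at an adjusted p under 0.05 (limma), open grey circles did not, crosses are genes with a mean of at least 1 in 1 group only, and vertical black bars are list medians without the crosses. The 4 Cyp3a genes lie between −0.19 and 0.30, and Cyp2b9 (−4.09) and Cish (2.18) lie farthest out.

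Genes beside the Cyp3a loci were examined as the surroundings of the family. Of 13 tested, 1 rose and none fell, near the share of 6.55% over all genes (median log2 fold change 0.05). Zkscan1, a zinc-finger gene, went from 39.2, 43.9 and 39.5 to 49.8, 46.8 and 52.5 (0.28, adjusted p = 0.0427, limma), and its call was lost on leaving out any liver but control replicate 2 (adjusted p up to 0.131) and in 4 of the 10 other alternatives. Azgp1, the most abundant of these genes, was at 1106 ± 22.6 and 1090 ± 18.5 (adjusted p = 0.849, limma). Trim4 was not found under that symbol.

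Cyp3a11 and Cyp3a25 are expressed most around the central vein, so zonal genes were examined as well. Of 12 pericentral genes outside the family, 1 rose and 2 fell (median log2 fold change 0.15). Tbx3 fell from 49.7, 51.8 and 57.3 to 35.2, 36.6 and 30.6 (−0.62, adjusted p = 0.00429, limma), and Lgr5, a WNT-response receptor, from 5.90, 6.00 and 5.62 in controls to between 2.87 and 4.45 (−0.53, adjusted p = 0.0441, limma). Cyp1a2 rose from 479, 628 and 491.5 to 811, 656 and 751 (0.48, adjusted p = 0.0441, limma). Glutamine synthetase (Glul), the narrowest pericentral marker, was at 985 ± 35.9 and 897 ± 86.8 and did not pass (adjusted p = 0.322, limma). The list had 1 call without control replicate 1, control replicate 3 or L-RalyKO replicate 3. The calls of Lgr5 (adjusted p up to 0.123) and Cyp1a2 (up to 0.141) were lost there too, that of Lgr5 also without control replicate 2 or L-RalyKO replicate 2, and that of Cyp1a2 also without L-RalyKO replicate 1. Among the other alternatives, where the list had 1 to 4 calls, Cyp1a2 was lost in 4, edgeR among them (0.0714), and Lgr5 in 3. Of 12 periportal genes 1 rose and none fell (median log2 fold change 0.24). This was Pck1, the gluconeogenic enzyme, from 2993, 2937 and 3625 to 5401, 5327 and 5616 (0.78, adjusted p = 0.00312, limma), and the list had 2 calls without control replicate 1 and 5 without control replicate 3, and 1 to 4 in the other alternatives. Among 8 hepatocyte markers Tdo2 rose (1525 ± 105 to 1971 ± 137, 0.37, adjusted p = 0.0265, limma), a call lost without control replicate 1 or 2 or L-RalyKO replicate 1 or 3 (adjusted p up to 0.0959) or when all genes with a read were tested, and the median was 0.11.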

How the data were processed

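RNA-seq of 6 livers was used. Per the methods, stranded libraries were aligned with TopHat 2.0.2 to mm9 and quantified with Cufflinks 2.0.2 as FPKM. The deposited values are another unit, a normalized signal: in each library 100% of them were whole multiples of 1 read (within 0.01 reads), and the authors' scaling factors equalled edgeR's TMM factors. The counting tool is not given in the sources used here.

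Groups came from the sample labels. L-RalyKO was compared with control by limma 3.58.1 (R 4.3.3) on log2(value + 1) with its trend option, among genes whose mean value reached 1, and adjusted by Benjamini-Hochberg over 11580 genes. Fold changes on that scale understate those of low genes. Recovered whole reads (28302983 to 38052705 per liver) went into edgeR 4.0.16, DESeq2 1.42.0 and limma voom as alternatives, beside other scalings, pseudocounts, filters, a replicate block and leaving out each liver. The precision is set by 3 mice per group.

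Members and gene lists were chosen with earlier results of these data known. Named are the 8 members, Raly, called list genes (the 4 of lowest p where more were called) and the 3 genes nearest in pattern to Cyp3a11, of which 1 is not reported here. List genes named without a call were chosen after their values were seen, and Serpina1e likewise.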

Additional observations from a re-analysis of the deposited data

How the results depend on the processing

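The log2 fold changes of Cyp3a11, Cyp3a13, Cyp3a25 and Cyp3a59 kept their sign in each of the 16 alternatives. Among these, limma without its trend, the other filters and the replicate block have the main fold change by design, so their sign could not differ. They ranged from −0.31 to −0.06 for Cyp3a11, 0.08 to 0.21 for Cyp3a13, 0.03 to 0.14 for Cyp3a25 and 0.13 to 0.45 for Cyp3a59. The number of members called was 0 in 15 alternatives, and between 0 and 1 on leaving out each liver, where the 1 was Cyp3a59 without control replicate 3. Over all genes, 758 calls became 484 when every gene with a read was tested, and 332 to 813 on leaving out each liver. DESeq2 gave 1088. Total count scaling moved the median of all genes from 0.00 to −0.03 and the share of calls that were higher in L-RalyKO from 51.3% to 40.9% (324 higher and 469 lower). Same-numbered livers did not deviate together (correlations of 0.0664, −0.0238 and 0.0196), so that the labels' numbers were not taken as pairs. With a replicate block 704 genes and 0 members were called. The summed values of the 8 members had a log2 ratio of −0.13 between the group means, and −0.16 with total count scaling. Counting Cyp3a41a and Cyp3a41b as 1 gene changed nothing, as Cyp3a41b has no read. With at most 10 reads per liver, Cyp3a16, Cyp3a41a, Cyp3a41b and Cyp3a44 allowed no fold change.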
